A study of Mus musculus with 8 samples.

Results

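Lgr4, Lgr5, Lgr6, Lrig1, Lrig2, Lrig3, Rnf43 and Znrf3 were followed across sorted basal cell carcinoma cells of mouse back skin. They were found as the probe sets that map to exactly 1 of these symbols, which gave 15 of the 45141 probe sets on the array and 8 of its 17097 genes. All 8 genes and all 15 probe sets passed the filter on low values. Where a gene had more than 1 probe set, the one with the highest mean over the arrays leads.

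The mice were K14-CreER/Ptch1cKO animals, in which a Cre under the keratin 14 promoter deletes Ptch1 from keratinocytes, and all groups carry this deletion. The 4 groups were Lgr5+Lrig1+ cells and Lgr5-negative Lrig1+ cells (spelled Lrg5-Lrig1+ in the labels) of vismodegib-treated mice, and the same populations of untreated mice. Vismodegib inhibits Smoothened, the transducer of the Hedgehog signal. Each group had 1 array from each of 2 mice, both populations came from the same 4 mice, while the labels give no age, dose or time. The drug-treated skin carried drug-tolerant lesions. Cells were sorted on an endogenous Lgr5-GFP reporter and on surface Lrig1, so the difference in Lgr5 between populations was set by the sort and is described without a test. Every cell was Lrig1-positive.

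Lgr4, Lgr5 and Lgr6 are receptors with leucine-rich repeats that bind R-spondins. The bound complex captures Rnf43 and Znrf3, membrane ubiquitin ligases that otherwise remove Frizzled receptors from the surface, and so raises the response to Wnt. In mouse hair follicles Lgr5 marks stem cells of the lower bulge and germ, Lgr6 cells of the isthmus, and Lrig1 cells of the junctional zone. Lrig proteins are membrane proteins with leucine-rich repeats and immunoglobulin domains, and Lrig1 promotes the breakdown of ErbB receptors.

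In untreated mice, 4 of the 7 members other than Lgr5 were higher in Lgr5-positive than in Lgr5-negative cells and 0 were lower, where 6.21% of the 14403 genes tested were higher and 10.9% lower. These were Lgr6 (2.81-fold), Lrig3 (2.18-fold), Lrig1 (1.73-fold) and Lgr4 (1.62-fold). In vismodegib mice 0 of the 7 passed this comparison (0.472% of all genes did), and the gap in Lgr5 itself, which the sort sets, was 24.1-fold by the leading and 9.31-fold by the other probe set. In untreated mice it was 5.77-fold and 5.3-fold. After vismodegib, Lgr4 (2.15-fold) and Lgr6 (1.85-fold) fell in Lgr5-positive cells, as did Lgr5 within its own gate (2.38-fold), where 4.51% of all genes fell. In Lgr5-negative cells 1 member passed, Lgr5 (9.94-fold lower by the leading and 3.71-fold by the other probe set, with signals near the filter level), where 3.32% of all genes passed. Rnf43, Znrf3 and Lrig2 passed in none of the comparisons.

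The windows from 250 bases before to 50 bases after the gene start are shown for the 4 relatives that were higher in Lgr5-positive cells of untreated mice (RefSeq, GRCm38.p6). They are chr2:109917397-109917696 (plus strand), chr1:135105227-135105526 (minus), chr6:94700096-94700395 (minus) and chr10:125965969-125966268 (plus). Capitals mark 2 motifs searched on both strands, which do not overlap here, the GC box GGGCGG (reverse CCGCCC) and the E-box CACGTG.
Lgr4: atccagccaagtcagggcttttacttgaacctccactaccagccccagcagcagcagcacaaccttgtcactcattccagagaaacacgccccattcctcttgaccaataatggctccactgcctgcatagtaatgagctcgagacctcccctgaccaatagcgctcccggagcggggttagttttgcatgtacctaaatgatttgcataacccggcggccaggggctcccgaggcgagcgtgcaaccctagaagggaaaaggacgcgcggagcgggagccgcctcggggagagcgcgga
Lgr6: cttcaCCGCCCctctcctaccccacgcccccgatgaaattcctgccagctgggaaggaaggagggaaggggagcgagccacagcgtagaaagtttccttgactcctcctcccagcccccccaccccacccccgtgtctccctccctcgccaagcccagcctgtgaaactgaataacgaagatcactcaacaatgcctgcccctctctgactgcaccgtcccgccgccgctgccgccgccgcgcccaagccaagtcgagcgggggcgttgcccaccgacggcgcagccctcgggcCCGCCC
Lrig1: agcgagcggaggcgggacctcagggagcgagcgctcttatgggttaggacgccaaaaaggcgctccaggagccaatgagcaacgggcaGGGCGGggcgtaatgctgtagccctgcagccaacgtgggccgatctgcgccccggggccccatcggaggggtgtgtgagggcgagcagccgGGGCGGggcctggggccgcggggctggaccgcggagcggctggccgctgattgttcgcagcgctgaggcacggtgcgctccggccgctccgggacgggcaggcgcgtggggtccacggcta
Lrig3: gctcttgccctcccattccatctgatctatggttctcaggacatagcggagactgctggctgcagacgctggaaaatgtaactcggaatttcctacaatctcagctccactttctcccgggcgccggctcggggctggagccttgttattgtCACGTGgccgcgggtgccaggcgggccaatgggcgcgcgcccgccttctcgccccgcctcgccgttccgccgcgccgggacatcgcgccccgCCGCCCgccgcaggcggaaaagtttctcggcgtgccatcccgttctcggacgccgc
The GC box was found 2 times in Lgr6, 2 times in Lrig1 and 1 time in Lrig3, and 35.7% of all 32851 promoter windows hold it. CACGTG was found 1 time, in Lrig3, against 7.15% of windows. The letters GACCACCCA, the consensus bound by Gli factors, and CTTTGAA and CTTTGTT, forms of the site bound by Tcf and Lef factors, were in none of the 4 windows. They are in 0.253%, 5.14% and 5.85% of all windows. The GC content of the 4 windows was 58.3% for Lgr4, 67.7% for Lgr6, 73.0% for Lrig1 and 66.3% for Lrig3. Windows matched 6 of the 8 members.

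Values are deposited log2 signals, and a fold change is the difference of group means ± its standard error from limma, with Benjamini-Hochberg adjustment over the 14403 genes tested and a threshold of 0.05. Array medians lay between 6.13 and 6.20. Ptch1 lay between 7.72 and 8.78 in the vismodegib arrays and between 10.56 and 11.91 in the untreated arrays. All groups carry its deletion, so no comparison here checks the genotype label. Gli1, another Hedgehog target, lay between 6.37 and 6.56 in the vismodegib arrays and between 8.75 and 10.13 in the untreated arrays. Of 6 keratinocyte markers 5 had a probe set that maps to 1 symbol only, and their mean stood between 11.57 and 11.77 in all 8 arrays. Of these Cdh1 rose with vismodegib in Lgr5-positive cells and was lower in Lgr5-positive cells of untreated mice. The 10 markers of macrophages, dendritic and Langerhans cells had means of 8.62 to 9.04 in vismodegib Lgr5-positive, 8.07 to 8.17 in vismodegib Lgr5-negative, 5.53 to 5.95 in untreated Lgr5-positive and 7.04 to 7.39 in untreated Lgr5-negative arrays. All 10 passed the filter on low values. With vismodegib 9 of these 10 rose in Lgr5-positive and 2 in Lgr5-negative cells, where 6.37% and 1.26% of all genes rose. Lgr5-positive cells had 2 of them higher in vismodegib mice (0.34% of all genes) and 5 lower in untreated mice (10.9%). T cell markers (3 tested) had 1 lower in untreated Lgr5-positive cells, fibroblast markers (3 tested, with Col3a1 and Pdgfra under the filter level) had 1 higher there, melanocyte markers (5 tested) had 1 that rose with vismodegib in Lgr5-positive cells, and endothelial markers (3 tested, Tek under the level) had none. The part of these markers in the results below was not tested. The labels tell the 2 arrays of a group apart only by the mouse. Any sort or array batch that went with the mouse could not be told apart from it. The p-values rest on the spread between these 2 arrays, pooled over all 4 groups and moderated over all genes. The main fit treats the 2 populations of a mouse as independent. In bulk samples, fewer cells of a type and less RNA per cell cannot be told apart.

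**Figure D1:**
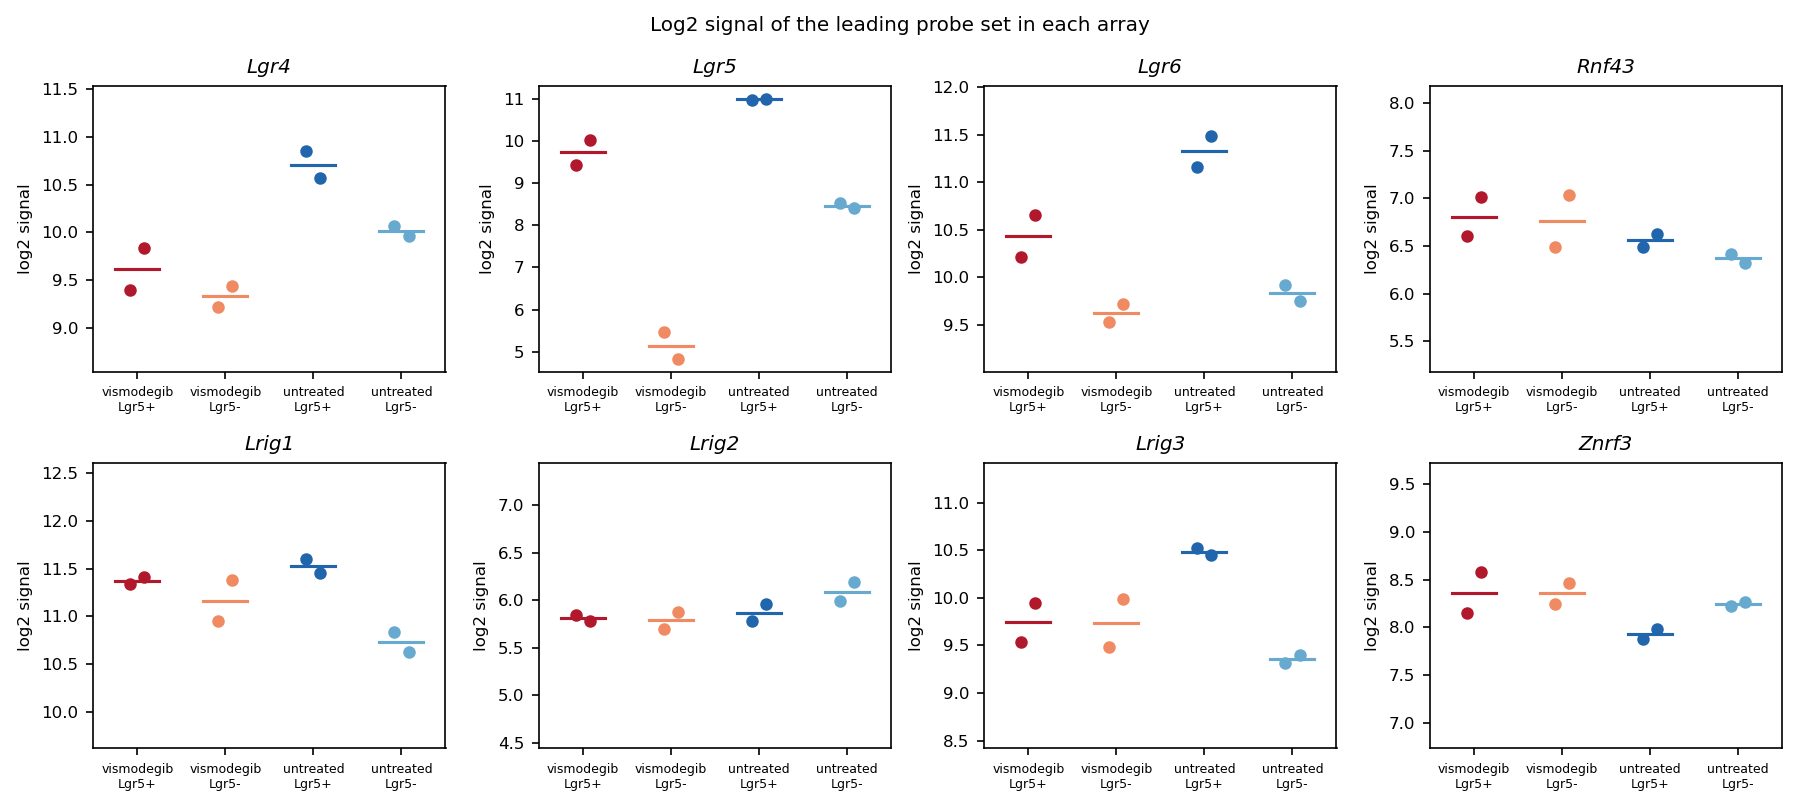
Log2 signal (y axis) of the leading probe set of each member in the 8 arrays, by group (x axis); points are arrays, bars the mean of 2 mice. Each panel has its own y range of at least 3 log2 units. Lgr5 spans 4.83 to 11.00, Lgr4, Lgr6 and Lrig3 peak in untreated Lgr5-positive arrays, and Lrig2 stays between 5.70 and 6.19.

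Lgr5 followed the gates with both probe sets. The leading one stood at 9.44 and 10.03 in vismodegib Lgr5-positive arrays, 5.46 and 4.83 in vismodegib Lgr5-negative arrays, 10.98 and 11.00 in untreated Lgr5-positive arrays and 8.52 and 8.40 in untreated Lgr5-negative arrays. The order of the 4 groups was untreated positive, vismodegib positive, untreated negative, vismodegib negative, and no neighbours overlapped. The other probe set gave the same order, at 7.53 and 8.10, 4.48 and 4.71, 9.01 and 8.77, and 6.63 and 6.34 in the same sequence of groups. Both of its vismodegib Lgr5-negative values and 1 of the leading set's lay under the filter level of 4.85. Fold changes into that group may therefore be understated.

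Within the same gate Lgr5 was lower after vismodegib. The sort on the Lgr5 reporter chose the cells of every group. These changes therefore describe gated cells and do not test Lgr5 over all tumour cells. In Lgr5-positive cells the change was −1.25 ± 0.25 (limma, adjusted p = 0.0189) by the leading and −1.08 ± 0.21 by the other probe set. In Lgr5-negative cells it was −3.31 ± 0.25 (limma, adjusted p = 0.00166) by the leading and −1.89 ± 0.21 by the other. Without vismodegib Lgr5-positive array 1 the Lgr5-positive change was −0.96 and did not pass (limma, adjusted p = 0.115), nor did it without untreated Lgr5-positive array 1 (0.0572) or array 2 (0.0763). The Lgr5-negative change passed in all 19 alternatives, between −3.63 and −2.60.

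Lgr6, the relative that marks the isthmus, had the largest difference of the 7 other members between the untreated populations. It stood at 10.21 and 10.66 in vismodegib Lgr5-positive, 9.53 and 9.72 in vismodegib Lgr5-negative, 11.16 and 11.49 in untreated Lgr5-positive and 9.92 and 9.75 in untreated Lgr5-negative arrays. The Lgr5-positive arrays were above the Lgr5-negative ones in both treatments, and no neighbouring groups overlapped. In untreated mice the population difference was 1.49 ± 0.19 (limma, adjusted p = 0.00295), and it passed in all 19 alternatives. In vismodegib mice it was 0.82 ± 0.19, higher in both mice, and did not pass (limma, adjusted p = 0.152; 0.101 with the mouse as a fixed block). Its 95% interval was 0.38 to 1.26, unadjusted.

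With vismodegib Lgr6 fell in Lgr5-positive cells, with a log2 change of −0.89 ± 0.19 (limma, adjusted p = 0.0248). This call was lost without vismodegib Lgr5-positive array 1 (−0.66, limma, adjusted p = 0.146) or untreated Lgr5-positive array 2 (−0.72, 0.113). It was also lost without either untreated Lgr5-negative array (0.0506 each) and with only the 4 arrays compared (0.066). In Lgr5-negative cells the effect on Lgr6 was −0.21 ± 0.19 and did not pass (limma, adjusted p = 0.603). The difference between these drug effects was −0.67 ± 0.27 and did not pass (limma, adjusted p = 0.248).

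Lgr4, the broadly expressed R-spondin receptor, was highest in untreated Lgr5-positive cells as well. It stood at 9.39 and 9.83 in vismodegib Lgr5-positive, 9.22 and 9.44 in vismodegib Lgr5-negative, 10.85 and 10.57 in untreated Lgr5-positive and 10.07 and 9.96 in untreated Lgr5-negative arrays. Every vismodegib array lay below every untreated array, unlike Lgr6, and the 2 vismodegib populations overlapped. In Lgr5-positive cells Lgr4 fell by 1.10 on the log2 scale, a change of −1.10 ± 0.18 (limma, adjusted p = 0.00899). The call was lost only without vismodegib Lgr5-positive array 1, at −0.88 (limma, adjusted p = 0.0608), among 19 alternatives. In Lgr5-negative cells the change was −0.69 ± 0.18 and did not pass (limma, adjusted p = 0.0925). The drug effects differed by −0.42 ± 0.25, with a 95% interval of −1.01 to 0.17 (limma, adjusted p = 0.435).

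Between populations Lgr4 differed by 0.70 ± 0.18 in untreated mice (limma, adjusted p = 0.0376). It did not pass without untreated Lgr5-positive array 1 (0.56, limma, adjusted p = 0.144) or without untreated Lgr5-negative array 1 (0.75, 0.12) or array 2 (0.65, 0.2). In vismodegib mice it differed by 0.28 ± 0.18 (limma, adjusted p = 0.59). The second Lgr4 probe set gave the same directions in all 4 comparisons of groups. Its drug effect in Lgr5-positive cells was −1.06 ± 0.35 and its population difference in untreated mice 1.09 ± 0.35, but neither passed among all probe sets (limma, adjusted p = 0.1 and 0.0729).

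**Figure D2:**
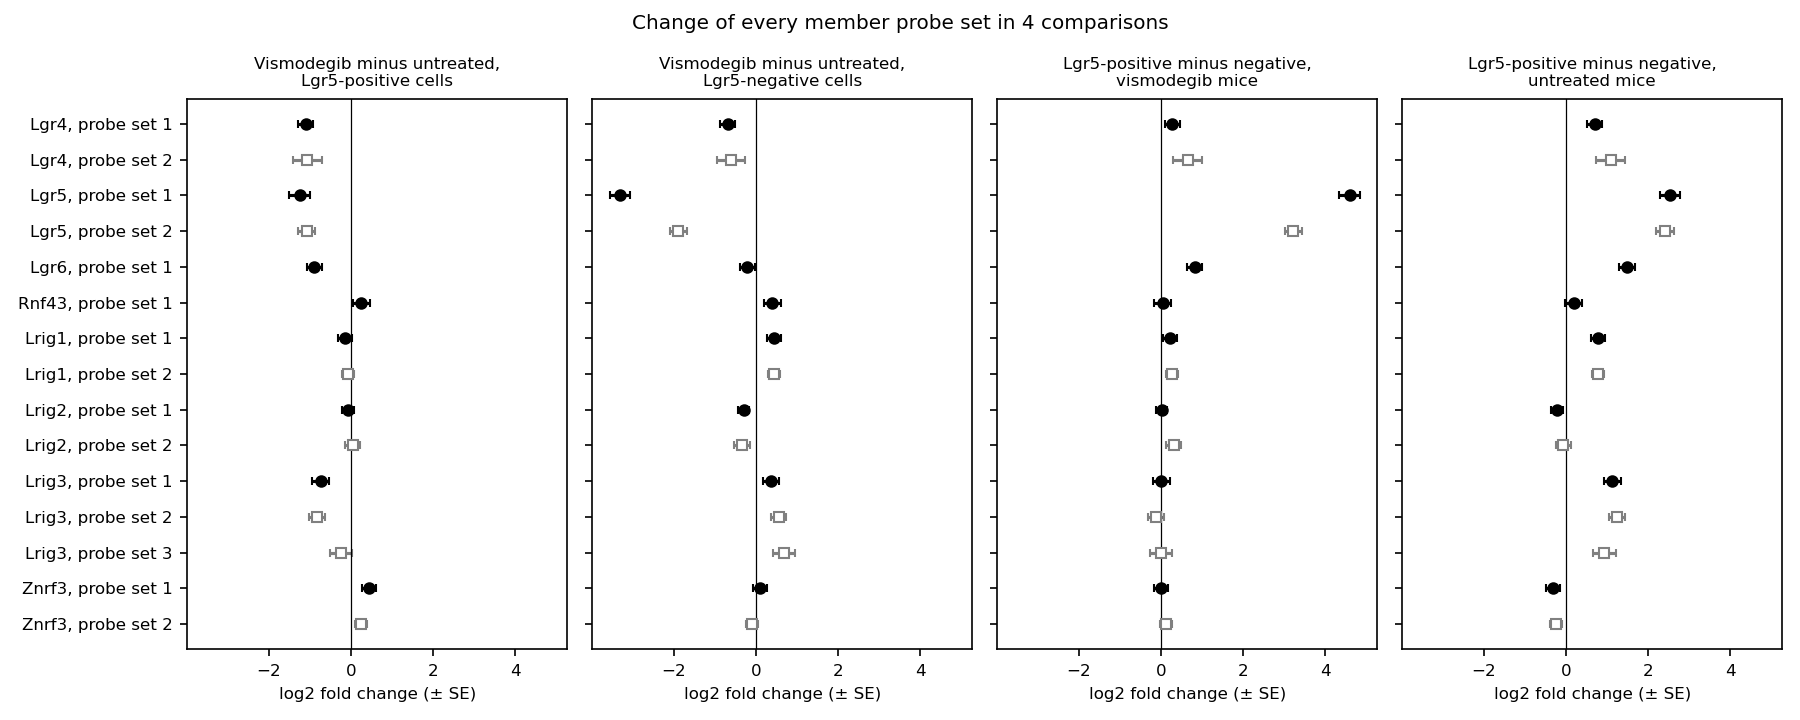
Log2 fold change (x axis, bars ± SE from limma over all probe sets) of the 15 member probe sets (rows) in 4 comparisons. Filled circles are leading and open squares other probe sets, numbered by mean signal. In untreated mice all probe sets of Lgr4, Lgr5, Lgr6, Lrig1 and Lrig3 lie above 0, from 0.70 to 2.53.

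Lrig1, the other sort marker, differed between populations although all cells were gated on it. The leading probe set stood at 11.34 and 11.41 in vismodegib Lgr5-positive, 10.95 and 11.38 in vismodegib Lgr5-negative, 11.60 and 11.45 in untreated Lgr5-positive and 10.84 and 10.63 in untreated Lgr5-negative arrays. The untreated Lgr5-negative arrays were the lowest of the 8. In untreated mice Lrig1 was higher in Lgr5-positive cells by 0.79 ± 0.17 (limma, adjusted p = 0.0192), and by 0.79 ± 0.15 with the other probe set. The call was lost without untreated Lgr5-positive array 1 (0.71, limma, adjusted p = 0.0758) and without untreated Lgr5-negative array 1 (0.89, 0.0597) or array 2 (0.69, 0.143). The Lrig1 fluorescence of the 2 populations within the gate was not used here.

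In vismodegib mice Lrig1 differed by 0.21 ± 0.17 between populations (limma, adjusted p = 0.67), with a 95% interval of −0.18 to 0.60. The drug effect was −0.15 ± 0.17 in Lgr5-positive and 0.43 ± 0.17 in Lgr5-negative cells, and neither passed (limma, adjusted p = 0.653 and 0.22). The drug effects differed by −0.58 ± 0.24 (limma, adjusted p = 0.259). Both Lrig1 probe sets are of types that can bind several transcripts, the leading one also those of related genes, which makes the values less certain.

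Lrig3, a relative of Lrig1 that is needed for inner ear shape in mice, passed between populations in untreated mice and not in vismodegib mice. The leading probe set stood at 9.54 and 9.95 in vismodegib Lgr5-positive, 9.48 and 9.99 in vismodegib Lgr5-negative, 10.52 and 10.45 in untreated Lgr5-positive and 9.32 and 9.40 in untreated Lgr5-negative arrays. The vismodegib populations overlapped and lay between the untreated ones. In untreated mice Lrig3 was higher in Lgr5-positive cells by 1.13 ± 0.20 (limma, adjusted p = 0.0101). The call was lost without untreated Lgr5-negative array 1 (1.09, limma, adjusted p = 0.0633) or array 2 (1.17, 0.0703). In vismodegib mice the difference was 0.01 ± 0.20 (limma, adjusted p = 0.989), with a 95% interval of −0.45 to 0.48.

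The drug effect on Lrig3 was below 0 in Lgr5-positive and above 0 in Lgr5-negative cells and passed in neither as fitted. It was −0.74 ± 0.20 in Lgr5-positive (limma, adjusted p = 0.0558) and 0.37 ± 0.20 in Lgr5-negative cells (limma, adjusted p = 0.367). The Lgr5-positive effect passed with the filter at the median, cyclic loess or median centring (limma, adjusted p = 0.0455, 0.0404 and 0.0453) and without either vismodegib Lgr5-negative array (0.0273 each). These effects differed by −1.11 ± 0.28, which did not pass (limma, adjusted p = 0.105). With the mouse as a fixed block it passed (limma, adjusted p = 0.0399), and with the mouse as a random block it did not (0.0785). The second probe set, which does not share the type of the leading one, stood at 9.15 and 9.58 in vismodegib Lgr5-positive, 9.28 and 9.69 in vismodegib Lgr5-negative, 10.11 and 10.27 in untreated Lgr5-positive and 8.96 and 8.91 in untreated Lgr5-negative arrays. Its Lgr5-positive drug effect of −0.82 ± 0.19 passed among all probe sets (limma, adjusted p = 0.0331), and its drug effects differed by −1.37 ± 0.27 (limma, adjusted p = 0.0628). The third and dimmest gave −0.25 ± 0.27 for the Lgr5-positive drug effect, and no vismodegib group lay apart from the other.

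Lrig2, known in people from variants behind a bladder and facial disorder, hardly varied. It was dim and did not pass the filter when set at the median level of 6.165. A small spread at such signal need not mean steady expression. Its leading probe set had 5.84 and 5.78 in vismodegib Lgr5-positive, 5.70 and 5.88 in vismodegib Lgr5-negative, 5.78 and 5.96 in untreated Lgr5-positive and 5.99 and 6.19 in untreated Lgr5-negative arrays. Its largest difference was −0.30 ± 0.13, the drug effect in Lgr5-negative cells (limma, adjusted p = 0.278), and the sign was the same with the other probe set (−0.34 ± 0.19). In Lgr5-positive cells its 95% interval for the drug effect was −0.38 to 0.25.

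**Figure D3:**
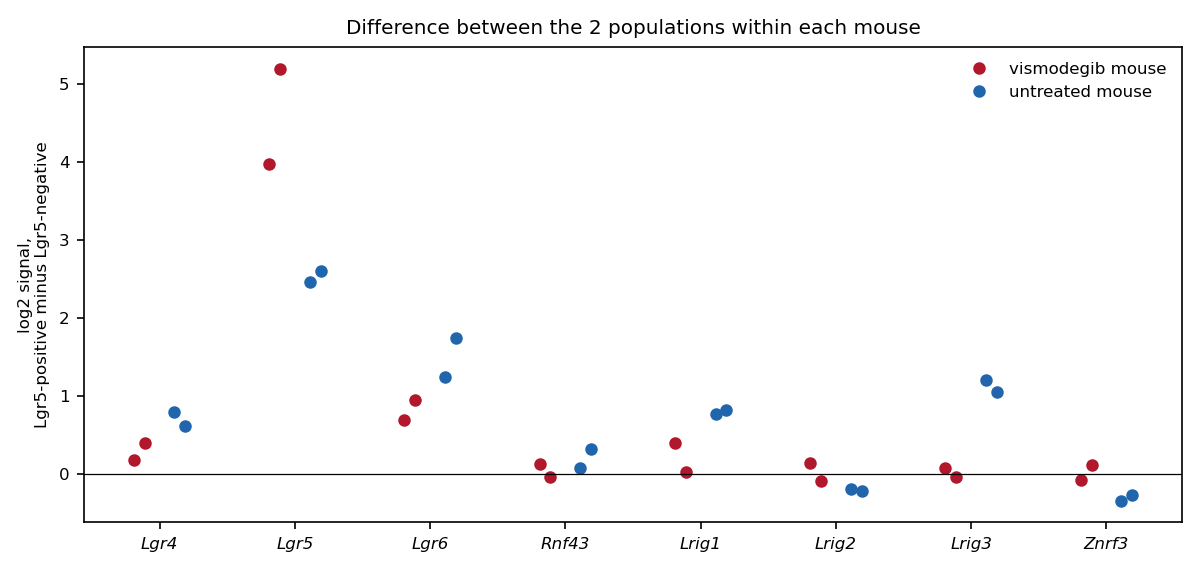
Lgr5-positive minus Lgr5-negative log2 signal (y axis) of each member's leading probe set (x axis) within each of the 4 mice. For Lgr6, Lgr4, Lrig1 and Lrig3 both vismodegib mice lie below both untreated mice, while for Lgr5 they lie above (3.98 and 5.20 against 2.46 and 2.60).

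Rnf43 and Znrf3, the ligases that R-spondin and Lgr receptors restrain, are themselves induced by Wnt signalling. Rnf43 stood at 6.61 and 7.01 in vismodegib Lgr5-positive, 6.49 and 7.04 in vismodegib Lgr5-negative, 6.49 and 6.63 in untreated Lgr5-positive and 6.42 and 6.32 in untreated Lgr5-negative arrays. Znrf3 stood at 8.15 and 8.58, 8.24 and 8.47, 7.88 and 7.98, and 8.22 and 8.27 in the same sequence of groups. The drug effects were above 0 for both genes in both populations by these probe sets, and none passed. For Rnf43 they were 0.25 ± 0.21 in Lgr5-positive and 0.40 ± 0.21 in Lgr5-negative cells (limma, adjusted p = 0.536 and 0.35). For Znrf3 they were 0.44 ± 0.16 and 0.11 ± 0.16 (limma, adjusted p = 0.145 and 0.78), and the other Znrf3 probe set gave 0.25 ± 0.15 and −0.10 ± 0.15.

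Znrf3 had its lowest values in untreated Lgr5-positive cells, with a difference of −0.31 ± 0.16 against Lgr5-negative cells of the same mice (limma, adjusted p = 0.234). In vismodegib mice the populations differed by 0.01 ± 0.16 for Znrf3 and by 0.04 ± 0.21 for Rnf43, with 95% intervals of −0.37 to 0.39 and −0.44 to 0.52. The 2 vismodegib mice differed in level for several members. Mouse 2 was above mouse 1 in both populations for 6 of the 8 leading probe sets, namely Lgr4, Lgr6, Lrig1, Lrig3, Rnf43 and Znrf3.

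Lgr5 is left out of the counts between populations, since the sort set its difference. Of the 7 other members 4 were higher in Lgr5-positive cells of untreated mice, where 17.1% of all genes passed in either direction. The groups did not overlap for 7 of these 7, against 64.6% of all genes. In vismodegib mice 0 of the 7 passed, where 0.34% of all genes were higher and 0.132% lower. There the groups did not overlap for 1 of the 7 (Lgr6), against 43.7%. Differences of the 7 ran from −0.31 (Znrf3) to 1.49 (Lgr6) in untreated mice and from 0.01 (Lrig3 and Znrf3) to 0.82 (Lgr6) in vismodegib mice. The median over all 8 members was 0.74 in untreated mice, with 0.02 over all genes, and 0.12 in vismodegib mice, with −0.01 over all genes. These 2 medians include Lgr5, so the sort raised them and they do not describe the 7 others. The members were chosen with earlier results of these data known, so the shares beside their counts are no test of enrichment.

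After vismodegib 3 of 8 members fell and 0 rose in Lgr5-positive cells, where 10.9% of all genes passed and 6.37% rose. Without Lgr5, on whose reporter the cells were gated, 2 of 7 fell, where 4.51% of all genes fell. The treated and untreated groups did not overlap for 6 of 8 members, against 54.8% of all genes. In Lgr5-negative cells 1 of 8 fell and 0 rose, where 2.06% of all genes fell and 1.26% rose, and groups did not overlap for 7 of 8, against 51.4%. The 1 that fell there was Lgr5, and 0 of the 7 others passed. The median drug effect over members, Lgr5 included, was −0.45 in Lgr5-positive and −0.05 in Lgr5-negative cells, with −0.01 and 0 over all genes. The difference between drug effects passed for 0 of the 7 members other than Lgr5, where 1.4% of all genes passed, 0.993% above and 0.41% below 0. Comparisons that share a group are not independent.

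The R-spondin ligands, which activate the Lgr receptors and which dermal and other cells can supply, were dim. Rspo1 and Rspo2 did not exceed the filter level in any array, with values from 3.77 to 4.35. Rspo3 lay between 4.95 and 5.28 and Rspo4 between 5.88 and 6.15, and neither passed in any comparison. Dim signal in cells that were sorted from epidermis says nothing of the ligands in the dermis.

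Of the Frizzled and Lrp receptors on which Rnf43 and Znrf3 act, 11 of 12 were tested. In untreated mice 2 were higher in Lgr5-positive cells and 0 lower, where 6.21% of all genes were higher and 10.9% lower. After vismodegib 1 rose and 1 fell in Lgr5-positive cells, where 6.37% of all genes rose and 4.51% fell. None passed in Lgr5-negative cells, where 3.32% of all genes did. Fzd2 stood at 9.06 and 9.85 in vismodegib Lgr5-positive, 8.35 and 8.82 in vismodegib Lgr5-negative, 10.97 and 11.35 in untreated Lgr5-positive and 9.47 and 9.36 in untreated Lgr5-negative arrays. It was 3.35-fold higher in Lgr5-positive cells of untreated mice (1.75 ± 0.28) and fell 3.27-fold with the drug in these cells (−1.71 ± 0.28). Fzd8 was higher in untreated Lgr5-positive cells (0.64 ± 0.17), and Fzd6 rose with the drug in Lgr5-positive cells (0.64 ± 0.15). The list's median drug effect was −0.31 in Lgr5-positive and 0.08 in Lgr5-negative cells, with −0.01 and 0 over all genes.

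**Figure D4:**
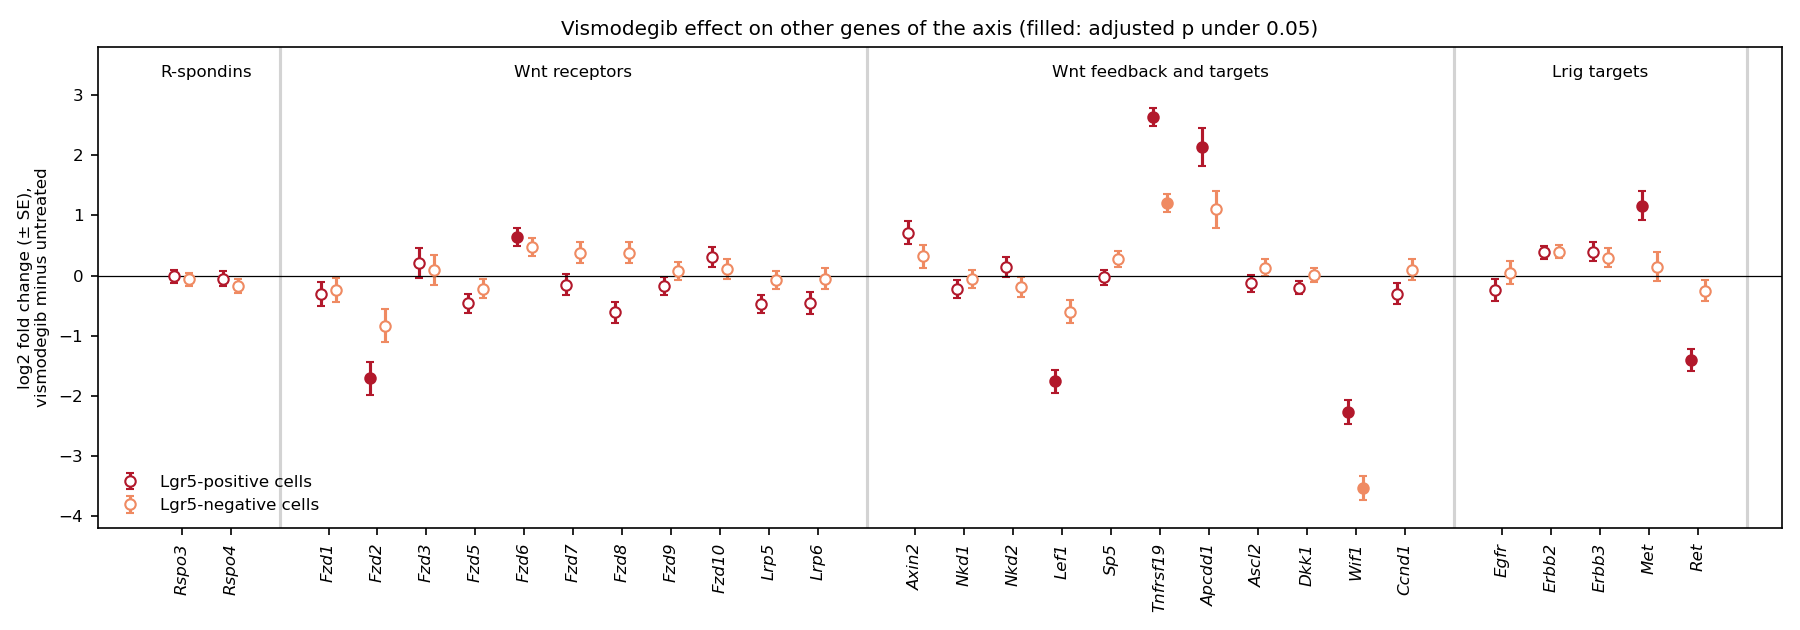
Log2 fold change of vismodegib against untreated (y axis, bars ± SE) for tested genes of 4 lists (x axis), with Lgr5-positive cells left of Lgr5-negative cells for each gene; filled points passed an adjusted p of 0.05 (limma). Fzd2 and Ret fell and Fzd6 and Met rose in Lgr5-positive cells. Over both populations Wnt targets ran from −3.53 (Wif1, Lgr5-negative cells) to 2.63 (Tnfrsf19, Lgr5-positive cells).

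Wnt feedback and target genes did not move one way. Of 11 tested from a list of 13, 2 rose and 2 fell in Lgr5-positive cells after vismodegib and 1 rose and 1 fell in Lgr5-negative cells. Over all genes 6.37% rose and 4.51% fell in Lgr5-positive cells, and 1.26% rose and 2.06% fell in Lgr5-negative cells. Tnfrsf19, a receptor gene that Wnt induces, stood at 9.11 and 9.24, 9.06 and 9.23, 6.43 and 6.66, and 7.80 and 8.08 in vismodegib Lgr5-positive, vismodegib Lgr5-negative, untreated Lgr5-positive and untreated Lgr5-negative arrays. The untreated Lgr5-positive arrays, highest for Lgr4, were lowest for Tnfrsf19. Axin2, a feedback inhibitor often used as a readout of Wnt signalling, stood at 7.99 and 8.46, 7.59 and 7.93, 7.43 and 7.60, and 7.50 and 7.39 in the same sequence. Its drug effect in Lgr5-positive cells was 0.71 ± 0.19 and did not pass (limma, adjusted p = 0.0537). Lef1, a partner of beta-catenin, fell in Lgr5-positive cells (−1.76 ± 0.19). In untreated mice 3 genes of the list were higher in Lgr5-positive cells (Lef1, Wif1 and Ccnd1) and 1 was lower (Tnfrsf19). There 6.21% of all genes were higher and 10.9% lower. In vismodegib mice 1 was higher, the Wnt inhibitor gene Wif1 (2.28 ± 0.20), where 0.34% of all genes were higher.

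Of the receptors that Lrig proteins act on, 5 of 6 were tested. In untreated mice Egfr (0.74 ± 0.19) and Ret (1.27 ± 0.18) were higher and Met (−1.02 ± 0.24) was lower in Lgr5-positive cells. Over all genes 6.21% were higher and 10.9% lower there. After vismodegib Ret fell (−1.40 ± 0.18) and Met rose (1.16 ± 0.24) in Lgr5-positive cells, where 6.37% of all genes rose and 4.51% fell. None of the 5 passed in Lgr5-negative cells (3.32% of all genes did) or between populations in vismodegib mice (0.472% did). Egfr stood at 10.49 and 10.65 in vismodegib Lgr5-positive, 9.84 and 10.41 in vismodegib Lgr5-negative, 10.83 and 10.80 in untreated Lgr5-positive and 10.10 and 10.05 in untreated Lgr5-negative arrays. Its group means had the order of those of Lrig1, but the Lgr5-negative groups overlapped for Egfr (drug effect 0.05 ± 0.19). For the leading Lrig1 probe set the vismodegib groups overlapped. A link between these genes was not tested.

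Other lists hold genes of the lower and the upper follicle, and their relation to the members was not tested. These lists were chosen with earlier results of these data known. The shares of all genes beside their counts are therefore no test of enrichment. Lower follicle and bulge genes had 4 of 5 tested higher and 0 lower in Lgr5-positive cells of untreated mice, led by Lhx2 (2.24 ± 0.18), a regulator of follicle stem cells. Upper follicle genes had 0 higher and 4 of 5 lower there, among them Defb6 (−1.92 ± 0.30) and Plet1 (−1.02 ± 0.20). Over all genes 6.21% were higher and 10.9% lower in that comparison. With vismodegib in Lgr5-positive cells the first list had 0 higher and 3 lower, and the second 5 higher and 0 lower. There 6.37% of all genes rose and 4.51% fell. Lgr6 and Lrig1, known from upper follicle compartments in normal mouse skin, were both higher in Lgr5-positive cells of untreated mice. None of the 10 genes of both lists passed between populations in vismodegib mice, where 0.472% of all genes did. In Lgr5-negative cells 1 gene of the first list rose and 1 fell with the drug, and 2 of the second rose. There 1.26% of all genes rose and 2.06% fell. The Hedgehog targets Gli1, Ptch1 and Hhip were all 3 lower after vismodegib in both populations (medians −3.52 and −2.44). All 3 were higher in Lgr5-positive cells of untreated mice, and none passed between populations in vismodegib mice.

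For the 4 members whose group means span at least 1, the 3 genes with the most similar pattern were taken by Pearson's r over the 8 arrays. These are descriptions over arrays of 4 mice, which share mice and groups. For Lgr4 they were Rasl11b (0.992), the adaptor gene Nck2 (0.992) and the ETS factor gene Etv4 (0.984). For Lgr6 they were the phosphatase gene Ptprk (0.99), the deubiquitinase gene Usp4 (0.989) and Arhgef25 (0.987). For Lrig3 they were Tmem231 (0.988), Rere (0.98) and Nacc2 (0.977). For Lgr5 they were Aagab (0.994), C730049O14Rik (0.978) and Zfp30 (0.977). Aagab stood at 7.25 and 7.26 in vismodegib Lgr5-positive, 6.85 and 6.82 in vismodegib Lgr5-negative, 7.43 and 7.38 in untreated Lgr5-positive and 7.13 and 7.15 in untreated Lgr5-negative arrays, so its range was a small part of that of Lgr5. Among the members, r with Lgr5 was 0.85 for Lgr6, 0.76 for Lgr4, 0.48 for Lrig3 and 0.39 for Lrig1, and r between Lrig1 and Lrig3 was 0.85.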

How the data were processed

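Sorted cells were profiled on Affymetrix perfect-match probe sets, 1 array per population and mouse. Per the submitters' processing notes the deposited values come from RMA, which corrects background, normalises by quantiles and summarises probe sets, and they are on a log2 scale as deposited (3.09 to 13.41 over the arrays). Its version is not stated there. Of 45141 probe sets, 104 were controls, 28898 had 1 symbol, 551 several and 15588 none.

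Each gene was represented by its brightest probe set, and genes above 4.85, the 25th percentile, in at least 2 arrays were tested (14403 of 17097). limma 3.58.1 in R 4.3.3 (two-sided) fitted 4 group means over 8 arrays, with 4 residual and 3.53 prior degrees of freedom. On simulated arrays for the drug effect in Lgr5-positive cells (14403 genes, 10 draws), the fit recovered 7.2% of genes changed by 0.5, 83.2% at 1, 97.2% at 1.5 and 99.2% at 2 (log2). A draw had 4 to 18 false calls, 6.4% of all calls, slightly above the threshold of 0.05. Each draw changed 50 genes per size, while 1566 genes were called in the data. The simulated noise was independent between arrays, with no mouse effect. The recovery rates hold for these settings and need not hold for the data. The number of arrays limits the precision.

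The labels give the mouse, so both populations of a mouse are paired, and their deviations from group means had r = 0.211 in vismodegib and 0.142 in untreated mice. The mouse as a fixed or as a random block is an alternative, beside other filters, probe set rules, scalings, priors, weights and arrays left out. In the fixed block each drug effect used the replicate number in place of the mouse.

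The text names all 8 members, some of the list genes with called changes, and 3 genes of similar pattern per member. Called list genes not named above include Cst6 (3.3) and Apcdd1 (2.14), by drug effect in Lgr5-positive cells. Krt15 (2.15 by drug effect in Lgr5-negative cells) is another. Axin2, Egfr as level, Rspo and Aagab values were added after they were seen. Members and lists were chosen with earlier results of these data known.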

Additional observations from a re-analysis of the deposited data

Results flagged for a closer look

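The vismodegib change in Lgr5 was −1.25 ± 0.25 in Lgr5-positive and −3.31 ± 0.25 in Lgr5-negative cells (2 mice per group), 2.06 apart. It stands here because this gap passed the threshold in the fit over all genes. It is given as a description only. It equals the gap between populations in vismodegib mice (4.59) minus that in untreated mice (2.53), and the sort on the Lgr5 reporter set both. The Lgr5-negative vismodegib group lies near the filter level, and the second probe set gave 0.81 ± 0.30.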

How the results depend on the processing

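With a fixed replicate block, 3 member calls changed. The block was the mouse for comparisons of populations and for the difference between drug effects. For each drug effect it was the replicate number. Lrig3's difference between drug effects passed (−1.11, limma, adjusted p = 0.0399), Lrig3's drug effect in Lgr5-positive cells passed (−0.74, 0.0434), and the Lgr5 gap between drug effects no longer did. With the mouse as a random block no member call changed (0.0785 and 0.051 for Lrig3). The mouse block tests the pairing of populations. Across treatments the replicate number marks different animals, so the block used for each drug effect has no pairing behind it. Counts of members below include Lgr5, whose population differences the sort set. Members that passed numbered 0 for the difference between drug effects with no filter and 0 with the mean of a gene's probe sets. Leaving out 1 array at a time, that count ran from 0 to 1, for the drug in Lgr5-positive cells from 0 to 4, for populations in untreated mice from 2 to 5, and in the other 2 comparisons it was 1. Over all genes the count without 1 array ran from 543 to 1823 for the drug in Lgr5-positive cells (1566 with all arrays), 65 to 523 in Lgr5-negative cells (478), 582 to 2852 for untreated populations (2466), 18 to 107 for vismodegib populations (68) and 2 to 251 for the difference between drug effects (202). For vismodegib populations it was 36 with no filter, 42 with every probe set, 11 with only the arrays compared and 105 with the block. For the drug in Lgr5-negative cells it was 234 with only the arrays compared. Signs turned only for values that had not passed. In vismodegib mice the population difference was −0.04 for Lrig3 with the mean of probe sets, and −0.03 for Lrig3, −0.02 for Lrig2 and −0.03 for Znrf3 with median centring. Without 1 array it ran from −0.01 to 0.43 for Lrig1, −0.07 to 0.11 for Lrig2, −0.25 to 0.27 for Lrig3, −0.24 to 0.31 for Rnf43 and −0.20 to 0.22 for Znrf3. Likewise the drug effect ran from −0.16 to 0.03 for Lrig2 in Lgr5-positive and −0.01 to 0.23 for Znrf3 in Lgr5-negative cells, and the difference between drug effects from −0.43 to 0.12 for Rnf43. Over members, comparisons and alternatives, 696 values kept direction and side of the threshold, 27 no longer passed, 7 newly passed and 17 changed sign. The cause was not tested. Signal near the filter level limits Lgr5 in vismodegib Lgr5-negative cells.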
